A study of Mus musculus with 6 samples.

Results

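PDZ-LIM proteins carry a PDZ domain at one end and LIM zinc-finger domains at the other, and most of them dock on alpha-actinin, the crosslinker of actin filaments. In striated muscle several of them sit at the Z-disc, the boundary of the sarcomere, where desmin intermediate filaments tie neighbouring myofibrils together. Desmin is an early protein of muscle differentiation, whereas vimentin filaments are typical of mesenchymal cells. Transcripts of 10 genes were followed, out of 54532 genes in the deposited count table. They were the PDZ-LIM genes Pdlim1, Pdlim2, Pdlim3, Pdlim4, Pdlim5, Pdlim7 and Ldb3, the intermediate filament genes Des and Synm, and the LIM-only gene Csrp3, each found by its symbol. The set was chosen by the same measured difference between control and induced libraries that is described here, so the differences of these 10 genes are given as a description and without a test.

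RNA sequencing was done on iCDCs, as the labels name them, a line of cardiosphere-derived cells from heart ventricle of C57BL/6 mice. The study calls the line iECDCs and grew it from the peeled epicardium, the outer layer of the ventricle. Both groups carried the same transgene, human telomerase (hTERT) delivered by a lentivirus under a CMV promoter and followed by puromycin selection, and both were at passage 30. The 3 control libraries came from untreated iCDCs. The 3 induced libraries came from iCDCs given 10 µM 5-azacytidine, an inhibitor of DNA methylation, over 3 days and then kept for 4 weeks in IMDM with 2% FBS according to the labels. The methods of the study name another medium and another duration, and they give an explant medium richer in serum for routine growth. The culture time of the sequenced controls, and whether they stayed in that medium, is not given in the sources used here. Drug, low serum and culture time therefore cannot be told apart. The labels call the RNA of each group separate samples without naming the cultures, so p-values measure the spread between these samples, which may be technical. The study used this induction to ask whether the line can take a cardiac course, and desmin was among the proteins it stained. After induction it reported desmin-positive cells, fewer cells positive for cardiac troponin T, and higher cardiomyocyte genes in RNA.

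Library depth was even, and between 19041133 and 19823369 reads were counted per library. A count of 0 in a library allows a level of up to 0.15 to 0.159 CPM (a count relative to the effective library total, with the TMM factor of edgeR). Intervals of pooled read ratios and this limit cover counting error only. The 95% intervals of log2 fold changes come from the standard errors of the edgeR fit, which include the spread between libraries. Of the 10 genes, 9 had enough reads for the fit across all 14246 testable genes, and Csrp3 did not. Des passed that filter through its induced libraries alone, and Synm also needed its induced libraries to pass it. On the adjusted p of 0.05 used for all genes, 4 of the 9 lay on the higher side, 1 lay on the lower side and 4 did not pass. Of all tested genes 64.8% passed, 32.6% higher and 32.2% lower. The same split came from the libraries themselves, with 4 of the 9 above every control library, 1 below every control library and 4 overlapping, while 34.1% of all tested genes were higher without overlap and 34.5% lower without overlap. Nothing is read from these counts, since the genes were selected on this contrast. The median log2 fold change was 0.00 over the 9 genes and -0.01 over all tested genes.

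**Figure D1:**
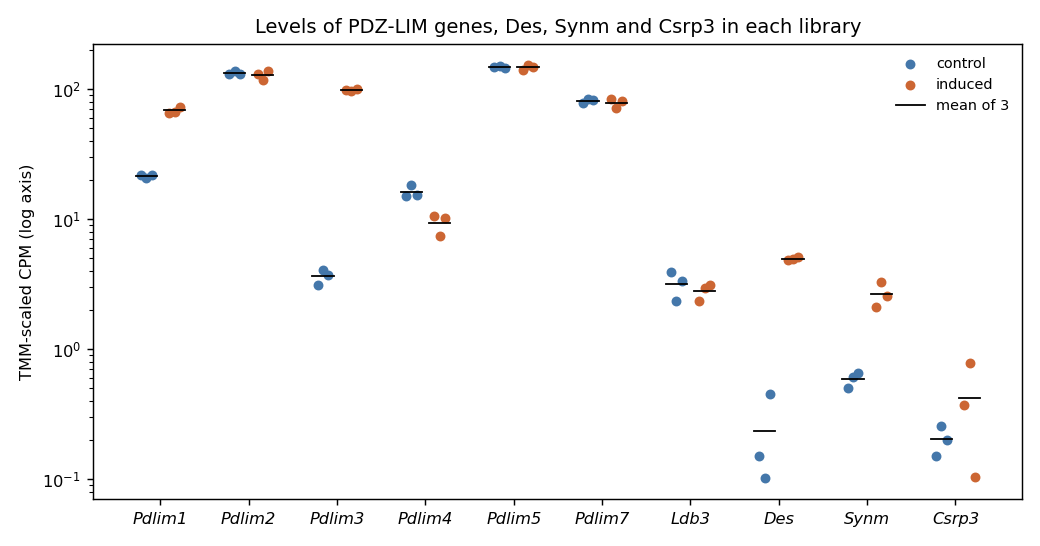
Level of each of the 10 genes in each library, in TMM-scaled CPM on a log axis, with 3 control and 3 induced points per gene and a black line at the mean. Pdlim3, Des, Synm and Pdlim1 were higher in all 3 induced libraries, Pdlim4 was lower, and the points of the other 5 genes overlapped.

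The upstream sequences of the 3 genes with the largest increases, of the gene that was lower and of Pdlim5, whose groups overlapped, are shown because the induction started with an inhibitor of DNA methylation, a mark placed mainly on CpG sites. DNA methylation itself was not measured. The sequences are from RefSeq (GRCm38.p6, the mm10 build), run 5′ to 3′ on the strand of the gene, and end at or just before the start site. CpG dinucleotides are in capitals. Pdlim3 is shown at chr8:45885237-45885460 on the plus strand, stopping where the gene begins in the deposited table. Des is shown at chr1:75360042-75360291 on the plus strand, and Synm at chr7:67759743-67759992 on the minus strand. Pdlim4 is shown at chr11:54069018-54069267 and Pdlim5 at chr3:142395697-142395946, both on the minus strand.
Pdlim3: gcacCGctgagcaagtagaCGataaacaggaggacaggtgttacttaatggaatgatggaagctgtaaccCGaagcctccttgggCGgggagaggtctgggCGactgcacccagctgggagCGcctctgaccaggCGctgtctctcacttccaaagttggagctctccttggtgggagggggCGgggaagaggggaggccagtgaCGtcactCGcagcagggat
Des: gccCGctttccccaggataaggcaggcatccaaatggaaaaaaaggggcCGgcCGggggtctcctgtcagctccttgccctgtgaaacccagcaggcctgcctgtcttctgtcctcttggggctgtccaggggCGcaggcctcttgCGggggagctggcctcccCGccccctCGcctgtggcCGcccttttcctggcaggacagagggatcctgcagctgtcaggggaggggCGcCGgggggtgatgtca
Synm: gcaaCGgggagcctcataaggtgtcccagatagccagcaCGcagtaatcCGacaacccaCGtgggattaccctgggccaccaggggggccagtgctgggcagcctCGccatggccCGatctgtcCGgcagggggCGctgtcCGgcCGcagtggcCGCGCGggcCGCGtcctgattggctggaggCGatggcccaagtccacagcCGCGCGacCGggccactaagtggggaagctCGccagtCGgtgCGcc
Pdlim4: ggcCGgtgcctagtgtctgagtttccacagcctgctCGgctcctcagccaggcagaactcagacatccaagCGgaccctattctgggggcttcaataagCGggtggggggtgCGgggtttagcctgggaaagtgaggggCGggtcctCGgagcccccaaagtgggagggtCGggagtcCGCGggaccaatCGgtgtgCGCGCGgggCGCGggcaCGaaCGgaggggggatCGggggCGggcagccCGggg
Pdlim5: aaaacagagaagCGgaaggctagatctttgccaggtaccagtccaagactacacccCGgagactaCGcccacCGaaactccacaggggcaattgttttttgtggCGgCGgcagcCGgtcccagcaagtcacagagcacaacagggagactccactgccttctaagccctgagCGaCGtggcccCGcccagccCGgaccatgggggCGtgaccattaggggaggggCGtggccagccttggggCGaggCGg
The printed stretches held 10 CpG sites for Pdlim3, 10 for Des, 23 for Synm, 21 for Pdlim4 and 15 for Pdlim5. CpG-rich and CpG-poorer starts thus occurred among the genes that were higher, and the gene that was lower had a CpG-rich start like that of Synm.

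Over the full RefSeq window of 300 bases (250 before the start site and 50 after it), 9 of the 10 genes had an entry, with 12 windows in all, and Pdlim2 had none. The median window of the 32851 in the table held 7 CpG sites. Synm held 33 and Pdlim4 31, more than 91.4% and 89.4% of all windows. Pdlim1 held 27, Pdlim7 26 and the 2 windows of Pdlim5 held 22 and 2, the first being the one printed. Pdlim3 held 15 and Des 11, more than 65.4% and 58.6% of windows. Both windows of Ldb3 held 6, and those of Csrp3 held 6 and 4. All 4 members that were higher therefore lay above the median window, as did Pdlim4, Pdlim7 and the printed window of Pdlim5.

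Short motifs were searched on both strands of the same windows. The E-box (CANNTG), the letters bound by MyoD-type factors, was found in 72.3% of all windows and began at -216 and -139 from the start site of Pdlim3, at -220 and -36 in Des, at -193 in Synm and at -162 in the printed window of Pdlim5. The windows of Csrp3, whose groups overlapped, held the most E-boxes, 4 and 5, while Pdlim1, which was higher, held 0, as did Pdlim4, Pdlim7, Ldb3 and the second window of Pdlim5. The CArG box, the letters bound by serum response factor, was found in 1.6% of windows. Among the members it occurred in Ldb3 alone, at one place that lies at -35 or -109 depending on the start site. TATAAA, found in 13.6% of windows, occurred at -78 of a second start site of Pdlim5. The MEF2 box, found in 3.2% of windows, was in no member window. A match describes letters and does not show binding.

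The ALP-type PDZ-LIM genes, named after the actinin-associated LIM protein, held the widest spread of changes. Pdlim3 (chromosome 8, 45885461 to 45919548, plus strand) encodes that protein, a Z-disc component of skeletal and cardiac muscle. It had 61, 80 and 74 reads in the control libraries and 1842, 1845 and 1897 in the induced ones. The groups were far apart, and the induced libraries were nearly equal. The mean level went from 3.63 ± 0.498 CPM to 98.1 ± 1.20 CPM (SD, n = 3 each), a log2 fold change of 4.76 with a standard error of 0.08, or 27.0-fold. Only 133 of the 14246 tested genes had a larger fitted rise.

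Pdlim1 (chromosome 19, 40221173 to 40271842, minus strand) encodes CLP36, an adaptor on actin stress fibres. It had 433, 407 and 439 reads in control libraries and 1241, 1270 and 1401 in induced libraries. Every induced library lay above every control library. Its level was 21.6 ± 0.708 CPM in control cells and 68.7 ± 4.09 CPM after induction (SD, n = 3 each), with a log2 fold change of 1.67 ± 0.06 (SE), or 3.19-fold.

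Pdlim4 (chromosome 11, 54054928 to 54069014, minus strand) encodes RIL, a small actinin-binding protein first described through its loss in transformed fibroblasts. It was the single member of the set lower after induction. Control libraries held 298, 360 and 304 reads and induced libraries 198, 141 and 195. The groups did not overlap, though the gap between them was narrower than for the genes that were higher. The level went from 16.2 ± 1.84 CPM to 9.39 ± 1.71 CPM (SD, n = 3 each), and the log2 fold change was -0.79 ± 0.13 (SE), which is 1.73-fold lower.

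Pdlim2 (chromosome 14, 70164218 to 70177681, minus strand) encodes mystique, an actinin-binding protein that also moves to the nucleus and takes part in the turnover of transcription factors. Its control libraries had 2577, 2688 and 2604 reads and its induced libraries 2452, 2244 and 2626. The ranges overlapped. Its level was 132.7 ± 3.73 CPM against 128.7 ± 9.90 CPM after induction (SD, n = 3 each), and the 95% interval of its log2 fold change ran from -0.16 to 0.07.

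**Figure D2:**
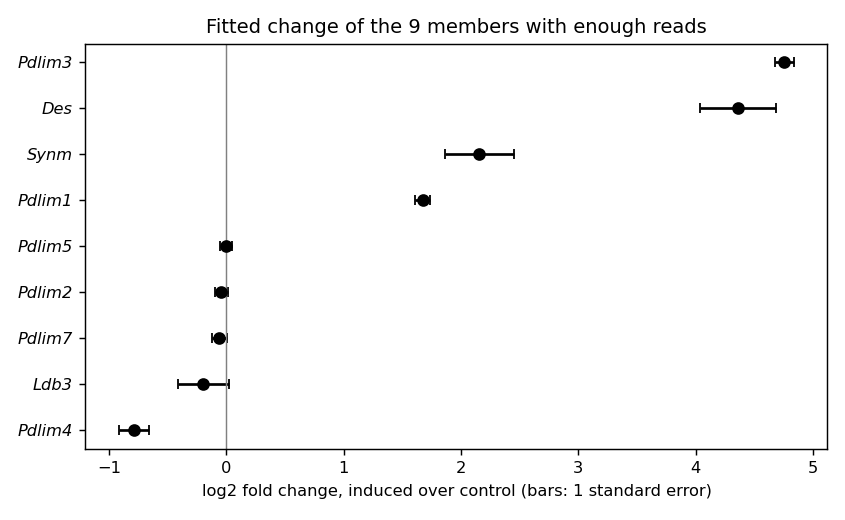
Fitted log2 fold change, induced over control, of the 9 genes with enough reads, with bars of 1 standard error and a line at 0. Pdlim3 at 4.76 and Des at 4.36 lie farthest right, Pdlim4 at -0.79 farthest left, and Pdlim5, Pdlim2 and Pdlim7 lie on the line.

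The Enigma-type PDZ-LIM genes, whose proteins carry several LIM domains, showed no separation between groups. Pdlim5 (chromosome 3, 142239590 to 142395696, minus strand) encodes ENH, which links protein kinase C to the Z-disc. It had 2900, 2948 and 2898 reads in control and 2628, 2930 and 2812 in induced libraries. Its mean level was 147.5 ± 2.57 CPM and 147.1 ± 7.23 CPM (SD, n = 3 each). The 95% interval of the log2 fold change, -0.10 to 0.10, was the narrowest of the set.

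Pdlim7 (chromosome 13, 55495795 to 55513676, minus strand) encodes Enigma, an adaptor for kinases and tropomyosin. It had 1550, 1640 and 1654 reads in control and 1570, 1350 and 1534 in induced libraries, and the ranges overlapped. Its level was 81.7 ± 2.72 CPM against 78.3 ± 6.48 CPM after induction (SD, n = 3 each), with an interval of the log2 fold change from -0.18 to 0.06. A microRNA gene, Mir6945, shares 1.4% of its exon bases. The signs of Pdlim2, Pdlim5 and Pdlim7 were not stable, since each lay on both sides of 0 when single libraries were left out.

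Ldb3 (chromosome 14, 34526603 to 34588682, minus strand) encodes Cypher (ZASP), the PDZ-LIM protein most closely tied to the sarcomere of heart and skeletal muscle. It was sparse, with 77, 46 and 67 reads in control and 44, 56 and 59 in induced libraries. Its level was 3.20 ± 0.790 CPM and 2.79 ± 0.400 CPM (SD, n = 3 each). The groups overlapped, and the 95% interval of the log2 fold change, -0.62 to 0.23, leaves no room for a rise of the size seen for Pdlim3 or Pdlim1.

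Levels of different genes were compared per length, with the deposited FPKM (fragments per kilobase of gene length, scaled to depth). In control cells Pdlim2 came first with a mean of 29.3 FPKM, followed by Pdlim7 with 16.7 and Pdlim5 with 16.5, whose library ranges overlapped. Pdlim4 with 6.28 and Pdlim1 with 4.06 came next. Pdlim3 with 0.698 and Ldb3 with 0.520 overlapped each other and closed the family. In induced cells Pdlim2 remained first with 28.6 FPKM, Pdlim3 stood second with 19.0, and Pdlim5 with 16.5 and Pdlim7 with 16.1 followed with overlapping ranges. Pdlim1 reached 13.0, ahead of Pdlim4 with 3.66 and Ldb3 with 0.457.

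The summed level of the 7 PDZ-LIM genes was 72.5, 76.1 and 73.4 FPKM in control and 98.0, 92.9 and 101.5 FPKM in induced libraries, a mean of 74.0 ± 1.87 against 97.5 ± 4.33 (SD, n = 3 each). Pdlim3 made up 0.941% ± 0.108 of this sum in control cells and 19.5% ± 0.619 in induced cells. Pdlim1 went from 5.49% ± 0.322 to 13.4% ± 0.516, and Pdlim4 from 8.47% ± 0.725 to 3.74% ± 0.566. The share of Pdlim2 was 39.6% ± 0.231 and then 29.3% ± 1.02, although its own level overlapped between the groups, because the sum had grown. The increase in the sum was thus carried by Pdlim3 and Pdlim1.

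**Figure D3:**
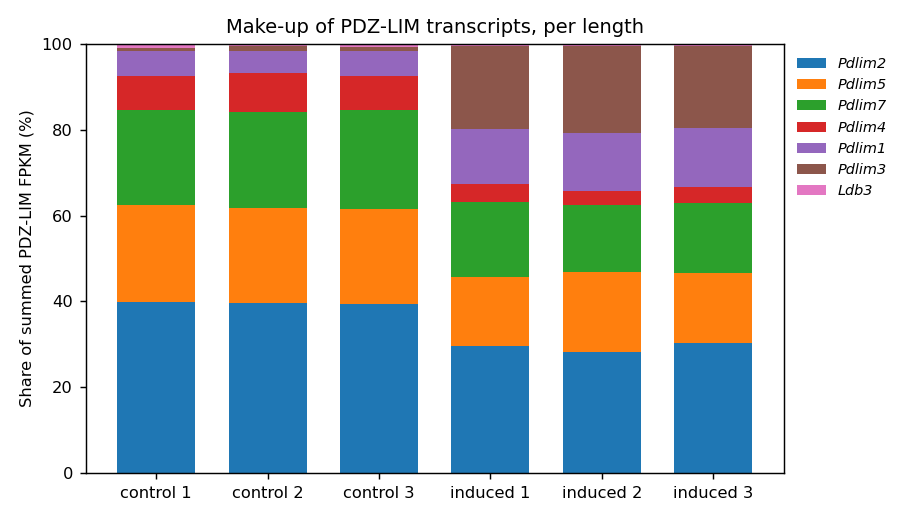
Share of each of the 7 PDZ-LIM genes in their summed FPKM, in percent, for each of the 3 control and 3 induced libraries. Pdlim3 is a thin band of about 0.941% in the control bars and fills 19.0% to 20.2% of the induced bars.

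Des and Synm, the intermediate filament genes of the set, were almost silent in control cells. Des (chromosome 1, 75360329 to 75368579, plus strand), the gene for desmin, had 3, 2 and 9 reads in control and 91, 94 and 98 in induced libraries. Every induced library lay about an order of magnitude above the highest control library. The level was 0.235 ± 0.189 CPM in control cells and 4.97 ± 0.152 CPM after induction (SD, n = 3 each). The pooled ratio of 283 to 14 reads, scaled to depth, was 21.1 (95% interval 12.4 to 39.0). The fitted log2 fold change was 4.36 ± 0.33 (SE), and 161 tested genes had a larger one. It rested in part on control replicate 3, which held 9 of the 14 control reads, and was 5.23 without that library. An antisense model, Gm15179, shares 5.9% of the exon bases of Des, and the strand setting of the counting is not given in the sources used here.

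Synm (chromosome 7, 67730160 to 67759742, minus strand) encodes synemin, a filament protein that assembles with desmin or vimentin and anchors them to the Z-disc. It had 10, 12 and 13 reads in control and 40, 62 and 49 in induced libraries, again without overlap. The level was 0.590 ± 0.0746 CPM and 2.65 ± 0.572 CPM (SD, n = 3 each). The pooled ratio of 151 to 35 reads was 4.50 (95% interval 3.10 to 6.70), with a fitted log2 fold change of 2.16 ± 0.30 (SE). Genes on the other strand share 6.4% of its exon bases.

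Csrp3 (chromosome 7, 48830398 to 48848033, minus strand) encodes the muscle LIM protein, a partner of alpha-actinin and telethonin at the Z-disc. It had 3, 5 and 4 reads in control and 7, 15 and 2 in induced libraries. The lowest library of all was an induced one, so the groups overlapped. The pooled ratio of 24 to 12 reads was 2.08, with a 95% interval from 1.00 to 4.57. Without induced replicate 2 it was 1.17 (0.437 to 3.04), and without induced replicate 3 it was 2.87 (1.36 to 6.37). The ratio thus depended on which induced library was counted, and these intervals leave out that spread.

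Desmin remained a minor filament transcript in bulk RNA, which does not give the share of cells that stain for the protein. In induced cells Des reached 1.32 FPKM and Synm 0.334, whereas vimentin (Vim), the main filament of mesenchymal cells, went from 849.7 ± 13.4 to 548.7 ± 6.06 FPKM (SD, n = 3 each). Vim exceeded Des between 7226 and 31120 times in control libraries and between 405.8 and 426.4 times in induced libraries. Nes, for the nestin of immature cells, went from 4.12 to 1.07 FPKM. Sync, for syncoilin, a desmin-associated filament protein of muscle, went from 1.55 to 2.89 FPKM. In induced cells Des lay between Ldb3 and Pdlim4 in the order of the 10 genes, while in control cells it came last, with Synm and Csrp3 in ranges that overlapped their neighbours.

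**Figure D4:**
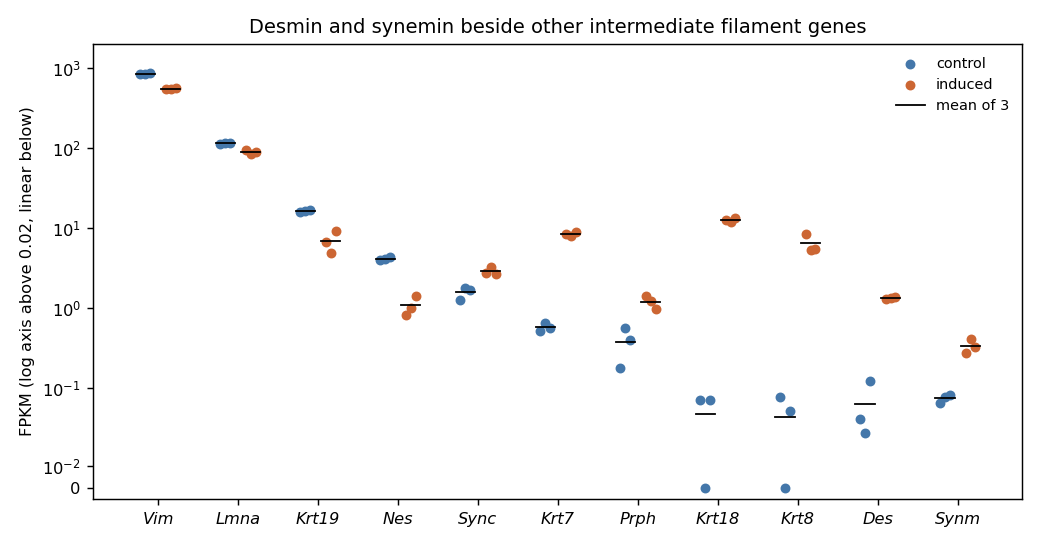
FPKM of Des, Synm and 9 other intermediate filament genes in the 3 control and 3 induced libraries, on an axis that is logarithmic above 0.02 and linear below, with black lines at the means. Des stands at 1.32 FPKM in induced cells, under Vim at 548.7, Lmna at 89.4, Krt18 at 12.5, Krt7 at 8.36, Krt19 at 6.88, Krt8 at 6.40 and Sync at 2.89, and Krt19 is the keratin that is lower than in control cells.

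The wider intermediate filament list held 23 genes for other filaments and their linkers, of which 17 were tested. In the quasi-likelihood fit of edgeR, with p-values adjusted over all tested genes by Benjamini-Hochberg, 9 rose and 7 fell, with a median log2 fold change of 0.83. For this list and those below, the share over all tested genes was 64.8% passing, 32.6% higher and 32.2% lower. Simple epithelial keratins moved both ways. Krt19 fell from 30.3 to 12.8 CPM, by 1.24 on the log2 scale (adjusted p = 2.74e-07), while Krt18, Krt8 and Krt7 had the largest rises of the list. Krt18 had 4 reads in control and 1022 in induced libraries, a ratio of 266 (95% interval 104 to 979). Krt8, its partner, had 5 and 713 reads, a ratio of 149 (63.4 to 459). Like Des, both passed the filter through their induced libraries alone, so no p-value is given for them. Krt7 rose by a log2 fold change of 3.87 (adjusted p = 2.07e-16). Among linkers of filaments to junctions, Pkp2, for plakophilin, rose by 2.33 and Jup, for plakoglobin, by 1.07 (adjusted p = 1.74e-12 and 3.06e-12). Lmnb1, for lamin B of the nuclear envelope, fell by 2.06 on the log2 scale (adjusted p = 1.35e-15). Vim fell by 0.64, Nes by 1.95 and Plec, for the crosslinker plectin, by 0.75 on the log2 scale, with adjusted p = 2.19e-11, 3.09e-10 and 2.73e-11. Sync rose by 0.88 (adjusted p = 5.46e-05).

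Of 38 genes on a Z-disc list, 23 were tested, 12 rose and 5 fell in the same fit, with a median log2 fold change of 0.30. The 15 untested genes included core sarcomere genes. Tcap (telethonin) had 0, 0 and 4 reads in control and 1, 2 and 3 in induced libraries, Ttn (titin) had 2, 4 and 2 against 3, 9 and 3, and Myot and Xirp2 had none anywhere. Other untested genes, named after their values were seen, were sparse with more reads after induction. Myoz2 had 3 reads in control and 32 in induced libraries, a ratio of 11.1 (95% interval 3.48 to 56.7). Synpo2l had 15 and 31 (2.15, 1.13 to 4.29), Ankrd2 0 and 21, and Capn3 0 and 10. The Z-disc name of the set describes where these proteins sit in muscle. Whether these cells form a Z-disc was not measured. Actn2, the sarcomeric alpha-actinin on which Pdlim3 and Ldb3 dock, had reads in induced replicate 2 alone, where it had 8. The other alpha-actinins were measured in all libraries. Actn4 was at 670.4 and 718 CPM and did not pass the test (adjusted p = 0.0733), and neither did Actn3, at 11.1 CPM in both groups (adjusted p = 0.963). Actn1 went from 406.0 to 357.8 CPM and fell by 0.18 on the log2 scale (adjusted p = 0.00151).

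Among Z-disc genes that rose, Fhl1, for a LIM protein of muscle sarcomeres, went from 22.2 ± 1.11 to 108.1 ± 3.13 CPM (SD, n = 3 each), a log2 fold change of 2.28 (adjusted p = 4.03e-16 by edgeR). Synpo2, for myopodin, rose from 0.724 to 8.14 CPM (log2 fold change 3.48, adjusted p = 4.72e-11). Nebl, for nebulette of the cardiac Z-disc, went from 0.506 to 3.69 CPM (log2 fold change 2.85). It needed its induced libraries to pass the filter, so no p-value is given for it. Trim63, for the ubiquitin ligase MuRF1, rose by 1.87 (adjusted p = 1.3e-07) and Fhl2 by 0.45 (adjusted p = 3.23e-05). The 5 genes that fell were Fhl3, Palld, Pgm5, Flnc and Actn1, of which Palld and Pgm5 are named after their values were seen. Fhl3 fell by 1.71 on the log2 scale (adjusted p = 2.83e-12). Palld, for palladin, fell by 0.64, Pgm5 by 0.40 and Flnc, for filamin C, by 0.27 on the log2 scale.

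Other LIM genes moved both ways. Of 35 listed, 31 were tested, 14 rose and 12 fell, with a median log2 fold change of 0.03. Ablim1, for an actin-binding LIM protein, rose by 2.00 (adjusted p = 1.73e-11 by edgeR). Lmo7, for a PDZ- and LIM-containing protein of adherens junctions, rose by 1.83 (adjusted p = 4.98e-09) and Crip1 by 1.09 (adjusted p = 3.72e-10). Tgfb1i1, for the focal adhesion protein Hic-5, fell from 115.9 to 41.1 CPM (adjusted p = 5.1e-14). The relatives of Csrp3 were far more abundant than Csrp3 and fell. Csrp1 went from 223.0 to 184.7 CPM and Csrp2 from 27.1 to 15.9 CPM (adjusted p = 0.000784 and 1.85e-05). Limk1 fell by 0.46 on the log2 scale and Limk2 rose by 0.33, both kinases of the actin regulator cofilin (adjusted p = 1.08e-05 and 1.02e-04).

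Among genes for reported binding partners of PDZ-LIM proteins, more fell than rose, many by little. Of 19 listed, 16 were tested, 2 rose and 11 fell, with a median log2 fold change of -0.20. Over all tested genes 32.6% were higher and 32.2% lower. The falls ran from 0.12 on the log2 scale for Tpm3, named after its value was seen, to 1.02 for Ptpn13. The 2 that rose were Prkce and Id2, the latter named after its value was seen. Prkce, for a protein kinase C bound by the Enigma group, rose from 12.9 to 28.5 CPM (log2 fold change 1.14, adjusted p = 1.35e-09 by edgeR). Id2, for a repressor of basic helix-loop-helix factors that ENH can hold outside the nucleus, rose by 0.80 (adjusted p = 1.92e-09). Ptpn13, for a phosphatase bound by RIL, fell by 1.02 on the log2 scale (adjusted p = 4.9e-11).

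Regulators of muscle genes also moved both ways, with 20 listed, 13 tested, 7 higher and 4 lower, and a median log2 fold change of 0.21. Srf, for serum response factor, which acts on many actin and filament genes, fell by 0.62 on the log2 scale (adjusted p = 4.81e-09 by edgeR). Myocd, its muscle coactivator, had 4 reads in control and 1 in induced libraries. Mef2a rose by 0.82 (adjusted p = 1.11e-09) and Mef2d by 0.21 (adjusted p = 0.00159), whereas Mef2c, at 0.17, did not pass (adjusted p = 0.255). Besides Srf the genes that fell were Mkl1 (-0.80), Tbx5 (-0.67) and Hand2 (-0.67), named after their values were seen, with adjusted p = 2.79e-10, 5.94e-06 and 9.11e-07. Besides Mef2a and Mef2d the genes that rose were Tbx20 (0.79), Tead1 (0.66), Gata4 (0.59), Tead4 (0.56) and Gata6 (0.37). They too are named after their values were seen, with adjusted p = 3.58e-06, 1.4e-08, 1.49e-09, 0.0144 and 6.1e-06.

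Markers of other cell types were read beside these results. In bulk RNA, fewer cells of a type and less RNA per cell cannot be told apart. The summed level of 14 cardiomyocyte markers was 14.0 to 16.4 CPM in control and 61.0 to 64.2 CPM in induced libraries, and most of it was Tnnt2, which rose by 2.15 (adjusted p = 4.9e-14 by edgeR). The other 13 markers together had 39, 52 and 37 reads in control and 96, 94 and 83 in induced libraries. Of these, Myl7 had 74 reads in induced libraries and 0 in control, at least 25.7-fold higher, and the cardiac myosin Myh6 had 1 read in all. Of 8 smooth muscle markers, all tested, 4 rose and 3 fell. Myh11, Mylk and Actg2 rose by 2.79, 1.23 and 1.25, while Cnn1 and Lmod1 fell by 3.10 and 1.73 on the log2 scale. Acta2, the most abundant of them and named after its value was seen, fell from 945.1 to 489.5 CPM. The sum of the 8 was 1221 to 1275 CPM in control and 1048 to 1102 CPM in induced libraries. Of 6 leukocyte markers 5 were at 0 in all libraries, and 6 endothelial markers summed to 1.60 to 1.89 CPM in control and 1.21 to 2.31 CPM in induced libraries. The 10 mesenchymal and epicardial markers, the types named for this line, were all tested, with 6 higher and 4 lower. Of the epicardial ones Upk3b rose from 254.0 to 942.1 CPM (log2 fold change 1.89), Tcf21 by 1.49 and Wt1 by 1.34, with adjusted p = 6.12e-16, 1.07e-11 and 3.21e-11. Tbx18, named after its value was seen, fell by 0.33 on the log2 scale (adjusted p = 0.000429). The part of these markers in the changes of Pdlim3, Des and Synm was not tested.

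One induced library stood apart for skeletal muscle genes. The 12 skeletal markers had 24, 24 and 18 reads in control libraries and 44, 192 and 21 in induced replicates 1, 2 and 3, with 5 markers at 0 in all libraries. Acta1, the skeletal actin, had 17, 123 and 1 reads in the induced libraries, Myog had 3, 19 and 0, and Myod1 had 1, 14 and 1. Des had 91, 94 and 98 reads in the same libraries, and its log2 fold change was 4.37 without replicate 2. Pdlim3 was as even. Synm and Csrp3 had their highest counts in replicate 2, and Synm was at a log2 fold change of 1.99 without it. The part of skeletal muscle genes or cells in the changes of these members was not tested.

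**Figure D5:**
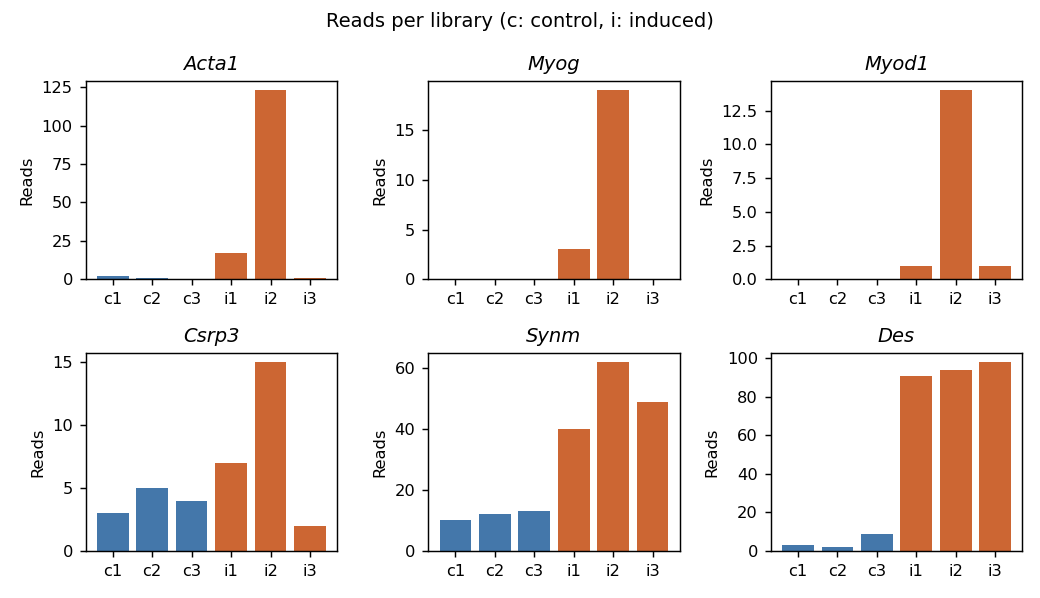
Reads in each library, control 1 to 3 (c1 to c3) and induced 1 to 3 (i1 to i3), for the skeletal muscle genes Acta1, Myog and Myod1 and for Csrp3, Synm and Des, each on its own linear axis from 0. Acta1 reaches 123 reads in induced replicate 2 against 17 and 1 in the other induced libraries, while Des holds 91, 94 and 98.

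The tested genes closest to Des in pattern were sought by the root mean square difference in log2 CPM over the 6 libraries, after centring each gene on its own mean. They were Clec2e at 0.147, Mx1 at 0.245, Myom2 at 0.278, Ifi206 at 0.279 and Vwc2 at 0.292. Closest to Pdlim4 were Psmc3ip at 0.037, Gm4294 at 0.043, Gm49359 at 0.058, Serp2 at 0.062 and Gtpbp3 at 0.084. These are distances between profiles of 6 libraries in 2 groups and carry no test.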

How the data were processed

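Per the labels, RNA of 3 control and 3 induced samples of iCDCs was sequenced. The authors deposited a table of raw read counts per gene and library, and in the same table FPKM values, which divide by gene length and depth. The submitters' processing notes name HISAT2 2.0.5, featureCounts 1.5.0-p3, DESeq2 1.16.1 and the mm10 build, and the methods of the study name DESeq. The strand setting is not given in the sources used here. Columns of the authors' own comparison (fold changes and p-values) and 2 Gene Ontology tables were not used.

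The count test was edgeR 4.0.16 under R 4.3.3. Low genes were removed with filterByExpr (at least 10 counts, total of 15), libraries were scaled by TMM, and groups were tested with the two-sided quasi-likelihood test, no covariate, with Benjamini-Hochberg adjustment over 14246 genes at 0.05. Fitted fold changes used a prior count of 0.125 and profiles a prior count of 0.5. Pooled read ratios have exact 95% binomial intervals. A fold against 0 reads is a lower bound set by 3 reads over the group. Replicate pairs within a group differed by more than sampling noise (chi-square over degrees of freedom from 2.56 to 8.91), so none were merged. The fit was tested on simulated data.

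The members and the gene lists were chosen with earlier results of these data known. Named were all 10 members, 22 genes set by name (alpha-actinins, Fhl, Csrp, Mef2 and other relatives), and from each list up to 6 genes by smallest p among those past the threshold with an absolute log2 fold change of at least 1 and 1 CPM in the higher group. A gene that this rule names is not reported here. Alternatives were DESeq2 1.42.0, its size factors, library totals, no filter, a stricter filter, limma 3.58.1 on log2(FPKM + 1) and log2(FPKM + 0.1), an adjusted p of 0.01, a replicate block and leaving out each library. Promoter windows are from RefSeq (GRCm38.p6). Leaving out single libraries for the pooled ratio of Csrp3 was added after the data were seen.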

Additional observations from a re-analysis of the deposited data

How the results depend on the processing

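The same number of members, 5, passed the threshold under every alternative run, and no member value past the threshold changed sign. Nothing is read from this about the members, since they were selected on this contrast. Of 135 member values under alternatives, 127 moved by less than the replicate spread or kept their side of the threshold and 8 moved further. On log2(FPKM + 1) the low genes shrank, to 1.13 for Des and 0.31 for Synm, and Pdlim3 to 3.56, as a pseudocount above the control level must do. Over all genes 7783 to 9765 passed, with 8514 to 9348 when single libraries were left out. With the replicate block 9063 genes and 5 members passed. Deviations of same-numbered libraries correlated at 0.01, -0.01 and 0.03, with 2 of 3 induced libraries matched best by their own number. With 3 libraries per group this cannot decide whether the numbers pair the samples. Of the lists, 15 to 22 Z-disc, 15 to 17 filament, 26 LIM, 11 to 14 partner and 10 to 14 regulator genes passed. Low counts limit Ldb3, Csrp3 and the control level of Des, and spread between libraries adds to this. Among control libraries the SD was 24.7% of the mean for Ldb3 and 80.3% for Des. Counting error alone gives 12.6% and 46.3%. For Csrp3 the spread lay between induced libraries.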

Other observations

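Nearest annotated protein-coding genes beside the members, chosen after the data were seen, moved in several ways by edgeR's quasi-likelihood test. Sorbs2 and Sorbs3, for adaptor proteins that link actin filaments to adhesion sites, each neighbour a PDZ-LIM gene. Sorbs2, 57.6 kb from Pdlim3, went from 2.60 ± 0.580 to 13.2 ± 1.61 CPM (SD, n = 3 each), a log2 fold change of 2.34 (adjusted p = 2.88e-10). Sorbs3, 2.8 kb from Pdlim2, went from 38.6 ± 1.75 to 65.6 ± 2.86 CPM (0.76, adjusted p = 1.38e-09). Speg, a kinase gene of striated muscle 6.7 kb from Des, went the other way from Des, from 95.9 ± 3.41 to 54.5 ± 0.865 CPM, and fell by 0.82 on the log2 scale (adjusted p = 1.66e-10). Beside Pdlim4, which was lower, P4ha2 rose by 0.22 and Slc22a4 by 0.41 (adjusted p = 0.00106 and 0.00317). Beside Pdlim7, which overlapped between groups, Dbn1, for the actin-binding protein drebrin, fell by 0.40 on the log2 scale (adjusted p = 9.69e-07).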
